A study of Homo sapiens with 6 samples.

Results

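The deposited table of genes that differed between the bladder carcinoma line T24 and its resistant strain lists 131 pseudogenes on chromosomes 1 to 22, of 2462 genes in all. They were taken by their annotated biotype, which had to hold the word pseudogene, and fell into 51 processed, 21 unprocessed and 59 transcribed pseudogenes. The unprocessed class holds 20 genes annotated as unprocessed and 1 polymorphic gene, CYP2D7. The transcribed class holds 43 transcribed unprocessed, 10 transcribed processed and 6 transcribed unitary pseudogenes. A further 5 pseudogenes, on chromosome X and an unplaced contig, were outside the rule.

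T24 cells come from a human bladder carcinoma and are a long established line. T24-R, called T24DDP in the sample labels, is the strain that the authors derived from it by rising exposure to gemcitabine and cisplatin. RNA of 3 libraries of each was sequenced, and the labels name no genetic change or further agent in either group. The labels do not say whether the 3 libraries of a group came from separate cultures, so the p-values measure only the spread between these libraries, and T24-R is a single selected strain. Values in the table are reads on a gene after division by the library's size factor, named scaled counts below.

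The authors listed only genes past their own thresholds on the same 6 libraries, so a gene that is not listed is not known to be unchanged, and the counts of changed members describe the table. Size factors ran from 0.939 to 1.03 in T24 and from 1.00 to 1.08 in T24-R, and 1170731 to 1411926 reads per library lay on listed genes. T24-R replicate 3 stood apart from the other T24-R libraries, with a chi-square per pseudogene of 6.04 and 6.58 against 1.69 between replicates 1 and 2. T24 replicate 1 stood apart as well, at 5.36 and 7.96 against 3.14 between T24 replicates 2 and 3, and without either library fewer members were called lower (43 without T24 replicate 1 and 42 without T24-R replicate 3). Of the 14 urothelial markers looked for, 3 were listed (PPARG and KRT19 lower and GATA3 higher in T24-R), of 5 mesenchymal markers COL1A1 and ACTA2 were listed as higher, and no leukocyte marker was listed. The listed mesenchymal markers summed to between 55.4 and 83.2 scaled counts in T24 libraries and between 222 and 299 in those of T24-R, and their part in the results below was not tested. In bulk RNA, fewer cells with a transcript and less of it per cell cannot be told apart.

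A processed pseudogene is a copy of a messenger RNA that was reverse transcribed and inserted elsewhere in the genome, usually without introns and without the parent's promoter. An unprocessed pseudogene is a duplicated gene, often beside its parent, that has lost its coding function, and a unitary pseudogene is a gene that was disabled without having been duplicated. Transcribed pseudogenes are those with transcripts of their own in the annotation. Abundant transcripts, those of ribosomal proteins above all, have left many processed copies, and short reads from a parent and from a nearly identical copy are hard to tell apart.

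The sequences of 3 processed groups show how close the copies are. The first are the copies of SMS, which encodes spermine synthase, the enzyme that makes spermine from spermidine. AL354714.2 (ENSG00000213080) lies on the plus strand of chromosome 1 and AL583856.1 (ENSG00000232389) on the minus strand of chromosome 6, and in GENCODE 44 neither stretch lies in another gene. SMS itself lies on chromosome X. The lines below give bases 492 to 611 of the SMS coding sequence and the matching bases of both copies, chr1:160895470-160895589 and chr6:70608724-70608843 in GRCh38. Capitals mark the bases at which a copy differs from SMS. They number 1 in AL354714.2 and 2 in AL583856.1.
SMS: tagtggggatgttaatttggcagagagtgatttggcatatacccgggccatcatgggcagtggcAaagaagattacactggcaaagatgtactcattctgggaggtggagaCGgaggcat
AL354714.2: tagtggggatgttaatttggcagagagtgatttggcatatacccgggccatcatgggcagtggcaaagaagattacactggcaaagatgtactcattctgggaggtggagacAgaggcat
AL583856.1: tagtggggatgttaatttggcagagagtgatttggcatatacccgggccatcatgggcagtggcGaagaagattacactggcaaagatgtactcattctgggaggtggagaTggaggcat

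The second is TMSB4XP8, a copy of the thymosin beta 4 gene TMSB4X, whose product binds actin monomers. TMSB4XP8 covers chr4:90838903-90839037 on the minus strand, inside an intron of CCSER1, which runs on the other strand. Its 135 bases match the whole TMSB4X coding sequence with 1 difference, in capitals.
TMSB4X: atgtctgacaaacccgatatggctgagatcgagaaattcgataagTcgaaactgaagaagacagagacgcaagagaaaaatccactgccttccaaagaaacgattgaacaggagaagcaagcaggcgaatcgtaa
TMSB4XP8: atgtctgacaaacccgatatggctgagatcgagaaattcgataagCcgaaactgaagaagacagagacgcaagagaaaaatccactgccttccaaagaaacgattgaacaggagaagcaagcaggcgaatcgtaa

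The third is RPL39P3, at chr6:73373108-73373263 on the minus strand, in introns of OOEP and of its antisense gene OOEP-AS1. It is shown because its 156 bases equal the coding sequence of RPL39, a protein of the large ribosomal subunit, with 0 differences, so no base is in capitals.
RPL39P3: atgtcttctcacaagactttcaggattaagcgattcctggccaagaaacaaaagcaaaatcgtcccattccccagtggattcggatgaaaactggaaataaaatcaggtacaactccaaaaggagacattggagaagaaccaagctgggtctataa

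Processed pseudogenes were mostly lower in T24-R, while the shares of unprocessed (71.4%) and transcribed (71.2%) pseudogenes called higher lay near that of all listed genes. In T24-R, 75 pseudogenes were called higher and 52 lower, by limma at an adjusted p under 0.05 and a log2 fold change beyond 1. Over all listed genes 69.2% were called higher, 29.2% lower and 98.3% in either direction, a share fixed by the authors' selection. Of the 51 processed pseudogenes 18 were called higher and 33 lower, with a median log2 fold change of -1.11. Of the 21 unprocessed pseudogenes 15 were called higher and 5 lower (median 1.87), and of the 59 transcribed pseudogenes 42 were called higher and 14 lower (median 1.28). Over all 2462 genes the median was 1.41. With the 19 members that are at 0 in every library of a group placed at their bound (3 reads per library), the medians were -1.08, 1.04 and 1.27. No test of the difference between the classes was made.

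TMM factors computed on the table assume that most of its genes are unchanged. The table holds only genes listed as changed, 98.3% of them called and 69.2% called higher. This setting shows how far the calls depend on the scale but cannot say which scale is right. With it, the log2 fold changes of all listed genes shifted by a median of -1.32, and the processed pseudogenes were 8 higher and 33 lower. The unprocessed were then 9 higher and 6 lower, and the transcribed, at 14 higher and 14 lower, were evenly divided. The groups of libraries did not overlap in 127 of the 131 pseudogenes, against 99.1% of all listed genes. The members called in neither direction were ZNF37BP, LRRC37A17P, MST1L and NSFP1, named here after their values were seen. ZNF37BP and LRRC37A17P had log2 fold changes of 0.97 and 0.95, just short of the threshold.

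**Figure D1:**
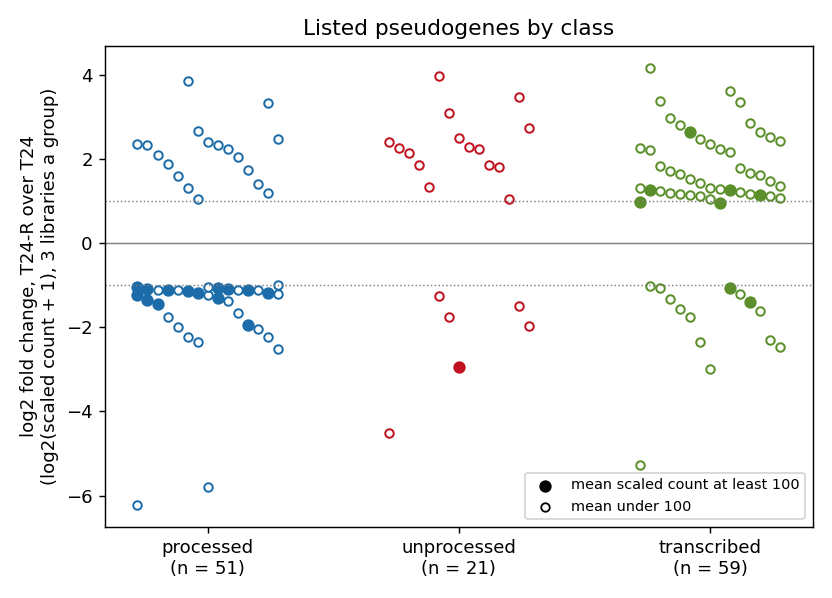
Fold change (log2) in T24-R relative to T24 on log2(scaled count + 1) for each listed pseudogene, by class, with dotted lines at 1 and -1. Filled points have a mean of at least 100 scaled counts over the 6 libraries, and all 14 filled processed pseudogenes lie below 0.

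Most of the pseudogene reads lay on the processed class, and its sum was lower in T24-R. The processed pseudogenes summed to 21790.3, 18226 and 16875 scaled counts in T24 and to 9322, 9239 and 7494 in T24-R. The groups did not overlap, and the mean was 18964 ± 2539 (SD, n = 3) in T24 and 8685 ± 1032 in T24-R. The unprocessed class summed to 1133, 1023 and 1138 scaled counts in T24 and to 466, 499.7 and 421 in T24-R. Its sum was thus lower although 15 of its members were called higher. This fall rests on 1 gene, AC245297.1, with a mean of 801 scaled counts in T24 and 109 in T24-R. The class means were 1098 and 462, and without AC245297.1 the mean sum was not lower in T24-R. The transcribed class summed to 2511, 2616 and 2632 scaled counts in T24 and to 3925, 4263 and 4115 in T24-R, all higher. The processed share of the summed pseudogene counts was 83.7% in T24 and 65.6% in T24-R. Pseudogenes took 1.68% to 1.91% of the reads on listed genes in T24 and 0.87% to 1.21% in T24-R.

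Among the processed pseudogenes the direction went with the level. All 14 with a mean of at least 100 scaled counts, a limit chosen after the values were seen, were called lower. The 37 with a lower mean were 18 higher and 19 lower, close to an even split, but 8 higher and 19 lower with TMM factors. The processed pseudogenes called higher had a median mean of 10.2 scaled counts, with 54.5 at most, and those called lower a median of 36.5.

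Direction went with the likeness to the parent transcript as well. A parent was assigned to 47 processed pseudogenes, whose aligned bases were between 82.5% and 100% identical to the parent's canonical transcript in GENCODE 44 (median 97.1%). At a limit of 95%, chosen after the values were seen, the 29 closer copies were 3 higher and 26 lower. The 18 more distant copies were 12 higher and 6 lower, but 5 higher and 6 lower with TMM factors, while the closer copies were then 1 higher and 26 lower. Among the copies whose parent is not listed, the 11 closer ones were 1 higher and 10 lower, and the 16 more distant ones 12 higher and 4 lower (5 and 4 with TMM factors). The level, the identity and the parent's direction go together in these genes and cannot be told apart here.

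Pseudogenes of ribosomal proteins were the largest family by symbol, with 21 members. Ribosomal proteins build the small (RPS) and large (RPL) subunits of the ribosome. Of 19 processed members 18 were called lower (29.2% of all listed genes were called lower), and the same 18 were lower with TMM factors. They summed to 19014, 15758 and 14459.6 scaled counts in T24 and to 7869.6, 7889 and 6138 in T24-R. These 18 members held 72.5% of the summed pseudogene counts in T24 and 55.1% in T24-R.

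The pseudogene with the most scaled counts was AC116533.1 (ENSG00000244398, chromosome 11), an intronless copy of RPL36A with 100% identity over 321 bases. It had 5099, 4336 and 3896 scaled counts in T24 against 2063, 2066 and 1722 in T24-R, with no overlap. Its log2 fold change was -1.18 (SE 0.135, adjusted p = 4.97e-05, limma with Benjamini-Hochberg adjustment over the table). Its parent RPL36A, on chromosome X, is not listed. PLEKHA7, a listed gene that AC116533.1 overlaps, was called in the other direction.

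RPL39P3, the copy printed above without a difference, had 4233, 2989 and 2702 scaled counts in T24 against 1628, 1726 and 1133 in T24-R. RPL39, on chromosome X, had 13797, 11606 and 10758 in T24 against 6924, 6575 and 4493 in T24-R. Both were lower in each T24-R library than in any T24 library, with log2 fold changes of -1.14 (SE 0.209) and -1.02 (SE 0.185). The copy's counts were 25.1% to 30.7% of the parent's in T24 and 23.5% to 26.3% in T24-R, overlapping ranges. Without T24 replicate 1 or without T24-R replicate 3, RPL39P3 was at -0.95 and no longer called.

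RPL10P16 had 3288, 3060.5 and 2818 scaled counts in T24 against 1657, 1520.3 and 1267 in T24-R. RPL10, its parent on chromosome X, lay between 44827 and 54207 scaled counts in T24 and between 17495 and 25794 in T24-R. Counts of RPL10P16 stayed at 6.07% to 6.34% of RPL10 in T24 against 6.09% to 7.24% in T24-R. RPL10P9, a second copy, changed by -1.09 (SE 0.133), beside -1.05 (SE 0.129) for RPL10P16 and -1.13 (SE 0.184) for RPL10.

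RPL15P3 had 1613, 1377 and 1272 scaled counts in T24 against 599.7, 526 and 437 in T24-R, a log2 fold change of -1.45 (SE 0.148, adjusted p = 2.61e-05, limma). RPL15, on chromosome 3, changed by -1.31 (SE 0.123). The 3 processed copies of RPS7 changed by -1.19 (RPS7P1), -1.30 (RPS7P10) and -1.09 (RPS7P11), beside -1.08 for RPS7. The 3 copies of RPL24 changed by -1.76 (RPL24P2), -1.11 (RPL24P4) and -1.34 (RPL24P8), beside -1.23 for RPL24. RPL35P1 changed by -1.23 (SE 0.399) and RPL35 by -1.05 (SE 0.231). In each of these families the copies and the parent moved down together.

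In AL162151.2, identical to RPL3 over its 158 bases, T24 replicate 2 (9.19 scaled counts) lay among the T24-R libraries (6.99 to 13.9), far from the other T24 libraries (79.4 and 89.4).

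The exceptions in the family were RPL12P14, AL691432.1 and RPS18P9, named after their values were seen. RPL12P14, processed, had 11.7, 9.19 and 6.77 scaled counts in T24 against 41.9, 29.6 and 27.4 in T24-R, and with TMM factors it was at 0.47 and not called. AL691432.1, a transcribed copy of RPS7, had 4.26, 11.2 and 13.5 in T24 against 40.9, 56.3 and 58.8 in T24-R, opposite to RPS7 and to the other RPS7 copies. It overlaps SLC35E2B, a listed gene that was called higher as well. RPS18P9 was higher too, at 1.22 (SE 0.254), but its sign turned with TMM factors.

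**Figure D2:**
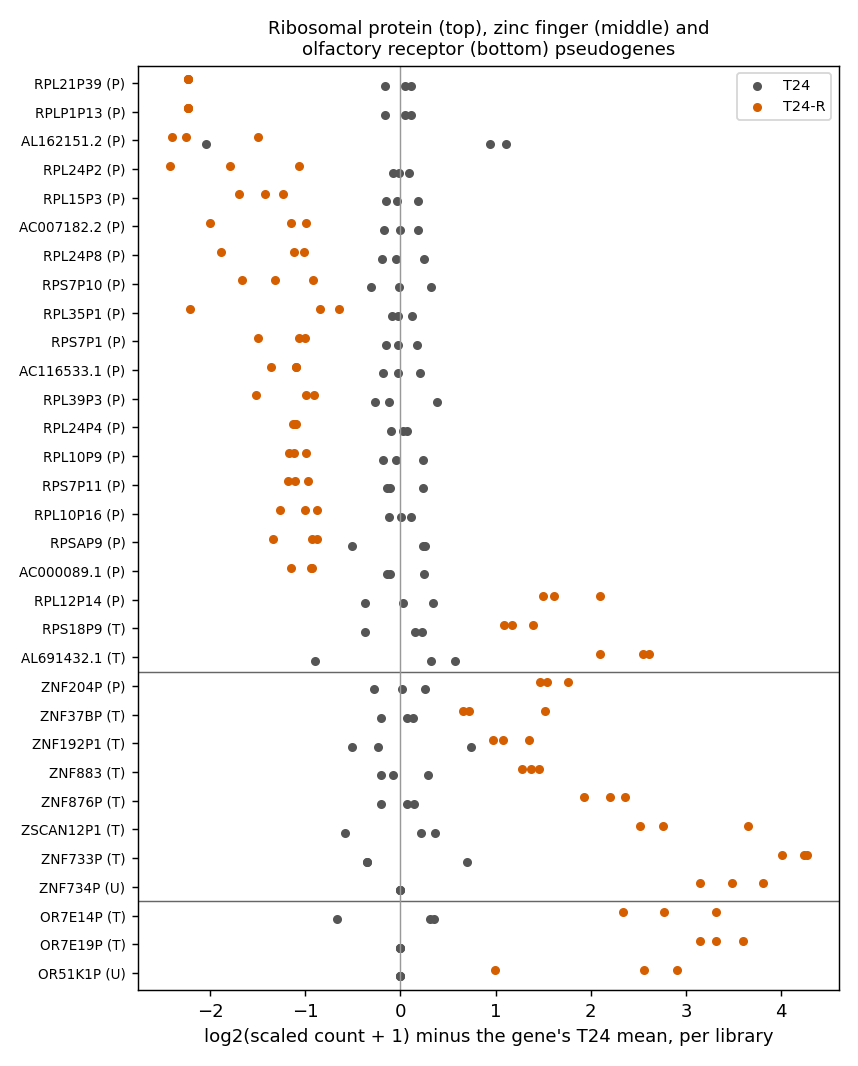
Each library's log2(scaled count + 1) minus the gene's mean in T24, for pseudogenes of ribosomal proteins, zinc finger proteins and olfactory receptors; P, U and T mark processed, unprocessed and transcribed. In 18 of the 21 ribosomal protein rows the T24-R points lie left of the T24 mean, and in the zinc finger and olfactory receptor rows they lie to the right on the scale as deposited (2 zinc finger rows turn with TMM factors).

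A parent was assigned to 85 of the 131 pseudogenes, and 31 of these have a parent (22 different genes) in the table. In 28 of the 31 pairs the pseudogene and its parent changed with the same sign, 23 both lower and 5 both higher, and this count was 28 with TMM factors too. Both genes of a pair were listed because they changed on these libraries, so the count is a description. All 20 processed pairs, with 14 parents, had the same sign, against 3 of 4 unprocessed and 5 of 7 transcribed pairs. In 14 of the 20 processed pairs the fold changes lay within 0.5 log2 units of each other, and the median absolute difference was 0.132. The log2 ratio of the pseudogene's to the parent's scaled count, each plus 1, overlapped between T24 and T24-R in 20 of the 31 pairs. With 3 libraries against 3, an exact permutation test of this ratio cannot give a two-sided p under 0.1, which the other 11 pairs reached. For the SMS copies, at 0 reads in T24-R, this ratio rose by 2.77 and 2.34 while the plain percentage fell.

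**Figure D3:**
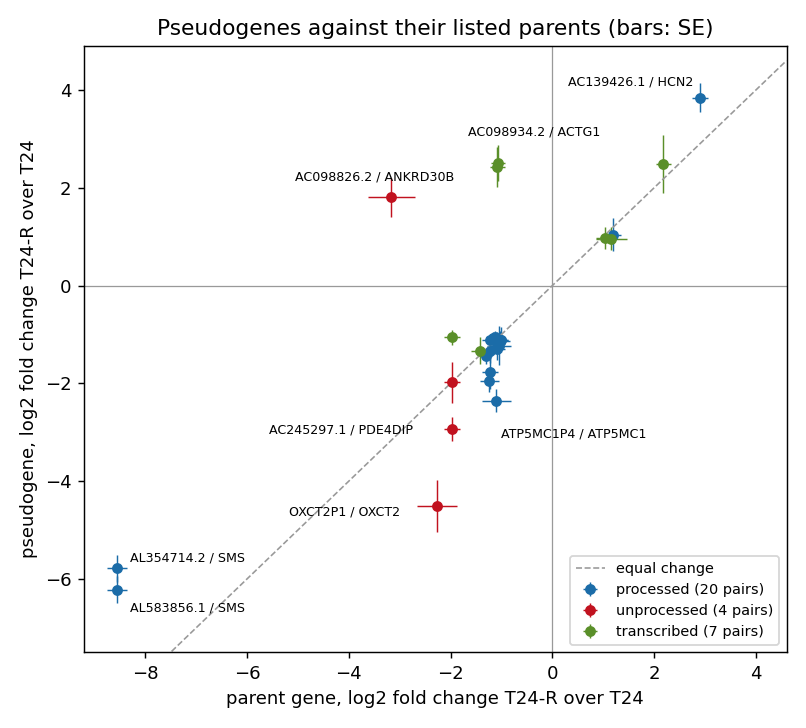
Log2 fold change of each pseudogene against that of its listed parent, T24-R over T24, with standard errors and a dashed line of equal change. Most processed pairs cluster near -1 on both axes, and 3 pairs lie in the quadrant where the pseudogene is higher and the parent lower.

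The pair with the deepest fall was SMS and its copies. SMS had 3532, 3476 and 3053 scaled counts in T24 against 9.98, 8.31 and 5.88 in T24-R, a log2 fold change of -8.56 (SE 0.187). AL354714.2 had 55.4, 59.2 and 48.4 scaled counts in T24 against 0 reads in each T24-R library. AL583856.1 had 72.4, 71.5 and 76.5 in T24 against 0 reads in each T24-R library. A count of 0 allows up to 3 reads per library, so AL354714.2 was at least 18.7-fold lower and AL583856.1 at least 25.3-fold lower in T24-R.

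In T24 the copies held 1.57% to 1.70% (AL354714.2) and 2.05% to 2.50% (AL583856.1) of the SMS count, not corrected for length. Over their whole length they were 98.5% and 97.1% identical to the SMS transcript. Of the 50-base stretches of AL354714.2, 46.3% occur elsewhere in the genome or in other transcripts, and 2.64% of its stretches as long as a read (150 bases) do. For AL583856.1 these shares were 16.3% and 0%. The SMS gene, on another chromosome than either copy, and both copies were thus at or near 0 in the same T24-R libraries. Whether reads of SMS were counted on the copies was not tested.

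**Figure D4:**
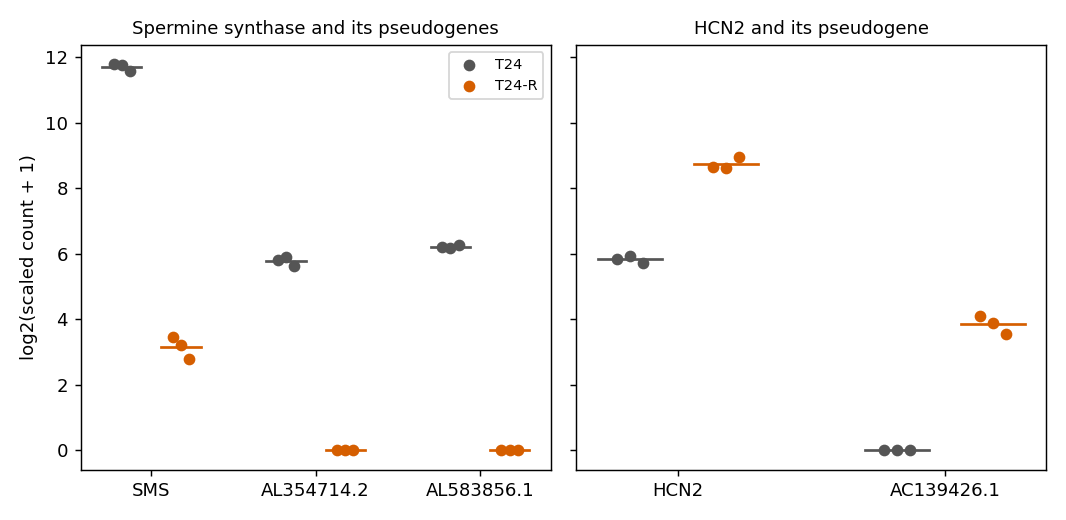
Log2(scaled count + 1) of each library for SMS and its processed pseudogenes (left) and for HCN2 and its pseudogene (right), with bars at the group means. The SMS pseudogenes are at 0 in all 3 T24-R libraries and the HCN2 pseudogene is at 0 in all 3 T24 libraries.

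The opposite case was HCN2, which encodes a pacemaker channel opened by hyperpolarization and cyclic nucleotides. HCN2 had 56.4, 60.3 and 51.3 scaled counts in T24 against 395, 392 and 493 in T24-R, a log2 fold change of 2.90 (SE 0.151). Its processed copy AC139426.1, on chromosome 15, had 0 reads in each T24 library and 16, 13.9 and 10.8 scaled counts in T24-R, at least 4.43-fold higher. AL591135.1, a copy of ARHGAP21, was the other processed pair that rose. It had 21.3, 16.3 and 31.9 scaled counts in T24 against 34.9, 43.4 and 68.5 in T24-R, and its fold change of 1.04 (SE 0.337) turned to -0.27 with TMM factors.

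Among the processed pairs outside the ribosome, TMSB4XP8 fell further than TMSB4X. TMSB4XP8 had 687, 503 and 424 scaled counts in T24 against 165, 151 and 102 in T24-R, a log2 fold change of -1.94 (SE 0.229), beside -1.24 (SE 0.185) for TMSB4X. Its count was 3.5% to 4.73% of the parent's in T24 and 2.38% to 2.52% in T24-R, which do not overlap. ATP5MC1P4, a copy of a gene for the c subunit of mitochondrial ATP synthase, had 71.3, 68.4 and 69.7 scaled counts in T24 against 15, 10.2 and 13.7 in T24-R. It fell by 2.36 on the log2 scale (SE 0.235) and ATP5MC1 by 1.1 (SE 0.286). ATP5MC1P4 is 92.7% identical to its parent, and 0% of its 50-base stretches occur elsewhere.

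MORF4L1P1, FABP5P7 and PHKA1P1 moved with their parents. MORF4L1P1, a copy of a chromatin reader gene, had 964, 825 and 902 scaled counts in T24 against 440.1, 446 and 394 in T24-R (log2 fold change -1.07, with -1.16 for MORF4L1). FABP5P7, a copy of a fatty acid binding protein gene with 0 differences over 405 bases, had 427, 382 and 346 in T24 against 179.6, 188 and 163 in T24-R (-1.11, with -1.0 for FABP5). PHKA1P1, a copy of a phosphorylase kinase subunit gene on chromosome X, changed by -1.1 and PHKA1 by -1.01.

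Copies of genes on chromosomes 3 and X were mostly lower, 15 of 16. All 14 processed pseudogenes whose parent lies on chromosome 3 or X were called lower. The exception was SLC9A7P1, a transcribed copy of a sodium and proton exchanger gene on chromosome X, called higher at 1.67 but at 0.38 and not called with TMM factors. The 33 processed members with a parent on another chromosome were 15 higher and 18 lower. Most of the 14 are copies of ribosomal protein genes (RPL10, RPL15, RPL24, RPL36A, RPL39 and RPSA). Ribosomal protein copies with a parent on other chromosomes were mostly lower too. The parent's chromosome and the family thus overlap and were not told apart. Of the 316 listed genes on chromosomes 3 and X, 93 were called higher and 221 lower. Chromosomes 3 and X were set apart with earlier results of these data known.

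The unprocessed and transcribed pairs held 3 opposite ones. AC098826.2, an unprocessed copy of ANKRD30B, had 3.19, 1.02 and 3.87 scaled counts in T24 against 8.98, 11.1 and 13.7 in T24-R, and it was not called with TMM factors (0.73). ANKRD30B had 24.5, 32.7 and 31.9 in T24 against 0.998, 1.85 and 5.88 in T24-R. AC098934.2, a transcribed copy of the gamma actin gene ACTG1, had 8.52, 4.09 and 11.6 in T24 against 39.9, 47.1 and 56.8 in T24-R, while ACTG1 changed by -1.06 (SE 0.142). The third was AL691432.1 with RPS7, given above.

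PDE4DIP, which encodes myomegalin, a centrosome and Golgi protein, was lower in T24-R together with 3 copies on chromosome 1. PDE4DIP had 7040.3, 6799 and 8247 scaled counts in T24 against 1702, 1640.4 and 2322 in T24-R (log2 fold change -1.98, SE 0.156). AC245297.1, unprocessed, had 869.7, 778 and 756 in T24 against 88.8, 159.8 and 78.3 in T24-R, a change of -2.94 (SE 0.245). AC244669.2 and AC241952.1 changed by -1.98 (SE 0.423) and -1.06 (SE 0.158). AC245297.1 shares 96.4% of its 50-base stretches with other places, PDE4DIP first, and AC241952.1 78.1%. AC245297.1 held 801 of the mean class sum of 1098 scaled counts in T24.

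OXCT2P1, an unprocessed copy of the ketone body enzyme gene OXCT2, had 58.5, 48.0 and 60.0 scaled counts in T24 against 2.99, 2.77 and 0 in T24-R. OXCT2 had 25.5, 26.6 and 19.4 in T24 against 2.99, 2.77 and 7.83 in T24-R. Both were lower in T24-R without overlap, with fitted log2 fold changes of -4.51 (SE 0.523) and -2.27 (SE 0.389). SEC22B4P changed with SEC22B, a vesicle trafficking gene (-1.33 and -1.42). SVIL2P changed with SVIL, the gene of the actin binding protein supervillin (2.48 and 2.18), but with TMM factors SVIL2P was at 1.63 and not called (adjusted p = 0.098, limma). LRRC37A17P had 86.2, 68.4 and 79.4 scaled counts in T24 against 119, 135 and 216 in T24-R, and LRRC37A, of the leucine-rich repeat family on chromosome 17, changed by 1.16 (SE 0.307).

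Transcribed pseudogenes include several with the names of long non-coding RNAs. TP73-AS1, annotated as unitary, had 269, 263 and 309.7 scaled counts in T24 against 749, 695 and 591 in T24-R, a log2 fold change of 1.27 (SE 0.132, adjusted p = 2.92e-05, limma). The counting's strand setting is not stated, and 10.6% of its exonic bases overlap exons of another gene, so reads of both could not be told apart there. FER1L4, a unitary relative of the ferlin genes, had 29.8, 76.6 and 42.6 scaled counts in T24 against 331, 344 and 218 in T24-R, a change of 2.64 (SE 0.332). FER1L4 was higher in each T24-R library than in any T24 library, by 5.99-fold between the means.

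With TMM factors TP73-AS1 was at -0.08 and FER1L4 was still positive. Of the 6 unitary pseudogenes 5 were called higher, and 2 of these (TP73-AS1 and ZNRD1ASP) turned negative with TMM factors. ZNRD1ASP had 30.9, 32.7 and 37.7 scaled counts in T24 against 77.8, 83.1 and 82.3 in T24-R. The unitary pseudogene that was lower was CRYM-AS1, at -1.62 (SE 0.302), which overlaps the listed gene CRYM, also lower.

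SDHAP1, a copy of the gene for the flavoprotein subunit of succinate dehydrogenase, had 393, 419 and 403 scaled counts in T24 against 187, 214 and 90.1 in T24-R (log2 fold change -1.39, SE 0.287). Its parent is not listed, and 71.9% of its 50-base stretches occur elsewhere. GTF2IP13, a copy of the transcription factor gene GTF2I, had 43.6, 50.1 and 37.7 in T24 against 77.8, 117 and 141 in T24-R. AL109918.1 and AL133216.2 rose by 1.26 (SE 0.156) and 1.62 (SE 0.187). AL109918.1 and GTF2IP13 turned slightly negative with TMM factors, and AL133216.2 stayed positive at 0.29 but was not called. DPY19L1P1, unprocessed, was called higher at 1.04 (SE 0.235) and was negative with TMM factors.

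On the scale as deposited, most zinc finger and all olfactory receptor pseudogenes were called higher in T24-R. Zinc finger genes encode DNA-binding proteins, many of them repressors of transposable elements, and olfactory receptor genes form the largest family of human receptors. All 8 zinc finger members had positive fold changes and 7 were called (69.2% of all listed genes were called higher). Among them, ZNF883 and ZNF192P1 are protein-coding in GENCODE 44. With TMM factors only ZSCAN12P1, ZNF733P and ZNF734P were still called, and ZNF37BP and ZNF192P1 turned negative. The 8 members summed to 301, 355 and 358 scaled counts in T24 and to 663, 691 and 1042 in T24-R. ZNF37BP made up much of this, with 232, 293 and 282 in T24 against 424, 441 and 768 in T24-R. Its relative ZNF37A changed by 1.02 (SE 0.167), beside 0.97 (SE 0.227) for ZNF37BP.

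ZNF733P and ZNF734P, neighbours on chromosome 7, were nearly silent in T24. ZNF733P had 1.06, 0 and 0 scaled counts in T24 against 23, 19.4 and 23.5 in T24-R. ZNF734P had 0 reads in each T24 library and 13.0, 10.2 and 7.83 in T24-R, at least 3.38-fold higher. Both share over 80% of their 50-base stretches with other places (82.8% and 86.9%), each most with the other. Of their 150-base stretches 57.0% and 58.2% were shared, so their counts may not be independent. The 3 olfactory receptor pseudogenes OR7E14P, OR7E19P and OR51K1P summed to 0, 1.02 and 0.968 scaled counts in T24 and to 17, 32.3 and 22.5 in T24-R. All 3 were called higher with TMM factors as well. OR7E14P and OR51K1P overlap the listed genes PLEKHA7 and OR51B5, which changed with the same sign. OR51K1P had only 0.998, 6.47 and 4.9 scaled counts in T24-R, at least 1.35-fold higher.

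More members were at or near 0 in T24 than in T24-R. In 23 members every T24 library held 3 reads or fewer, and in 12 of these every T24 library held 0. In T24-R these counts were 10 and 7. The same lean held over all 2462 listed genes, at 324 and 123 for T24 against 76 and 36 for T24-R. Outside the SMS copies, the best covered member at 0 in T24-R was AC126323.1, a transcribed pseudogene on chromosome 15. It had 28.7, 43.9 and 41.6 scaled counts in T24 against 0 reads in each T24-R library, at least 13.1-fold lower. Its neighbour GOLGA2P11, a copy of the golgin gene GOLGA2, had 2.13, 5.11 and 5.81 in T24 against 0 reads in T24-R.

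Some members lie close together, and 31 of them formed 13 clusters with gaps of at most 500 kb. In 10 of the clusters all members (24 in all) had the same sign, and 3 clusters were mixed. On chromosome 9, AQP7P1, AL845321.1, BMS1P10 and FRG1JP were all called higher. AQP7P1 and AL845321.1 overlap each other and lie within BMS1P10, and in another cluster CYCSP10 lies within EMC3-AS1. Their exons in GENCODE 44 do not overlap, but they are not separate loci. AQP7P1, a copy of an aquaglyceroporin gene, had 6.39, 9.19 and 8.71 scaled counts in T24 against 42.9, 42.5 and 44.1 in T24-R, with 90.5% of its 50-base stretches found elsewhere. Elsewhere on that chromosome ANKRD20A7P, CR848007.1 and CYP4F60P were all called higher, from at most 1.02 scaled counts in a T24 library. CYP4F60P, a cytochrome P450 relic, had 0, 1.02 and 0 in T24 against 22, 18.5 and 16.6 in T24-R.

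On chromosome 6, ZSCAN12P1, ZNF192P1 and TOB2P1 were called higher within 127 kb. ZSCAN12P1 had 4.26, 2.04 and 4.84 scaled counts in T24 against 24.9, 29.6 and 55.8 in T24-R. TOB2P1 had 6.39, 9.19 and 9.68 in T24 against 33.9, 39.7 and 42.1 in T24-R. With TMM factors, 8 of the 18 members of the clusters that were higher were still called, and 5 turned negative. FRG1JP (0.62) and TOB2P1 (0.82) stayed positive but were not called. The mixed clusters included AC116533.1 (lower) beside OR7E14P (higher).

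The nearest listed gene had the same sign as the pseudogene in 94 of 131 cases (71.8%). This share was 58.8% for processed, 76.2% for unprocessed and 81.4% for transcribed pseudogenes, and 76.4% for the listed protein-coding genes. The processed class was thus the lowest of these shares, without a test of the difference.

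**Figure D5:**
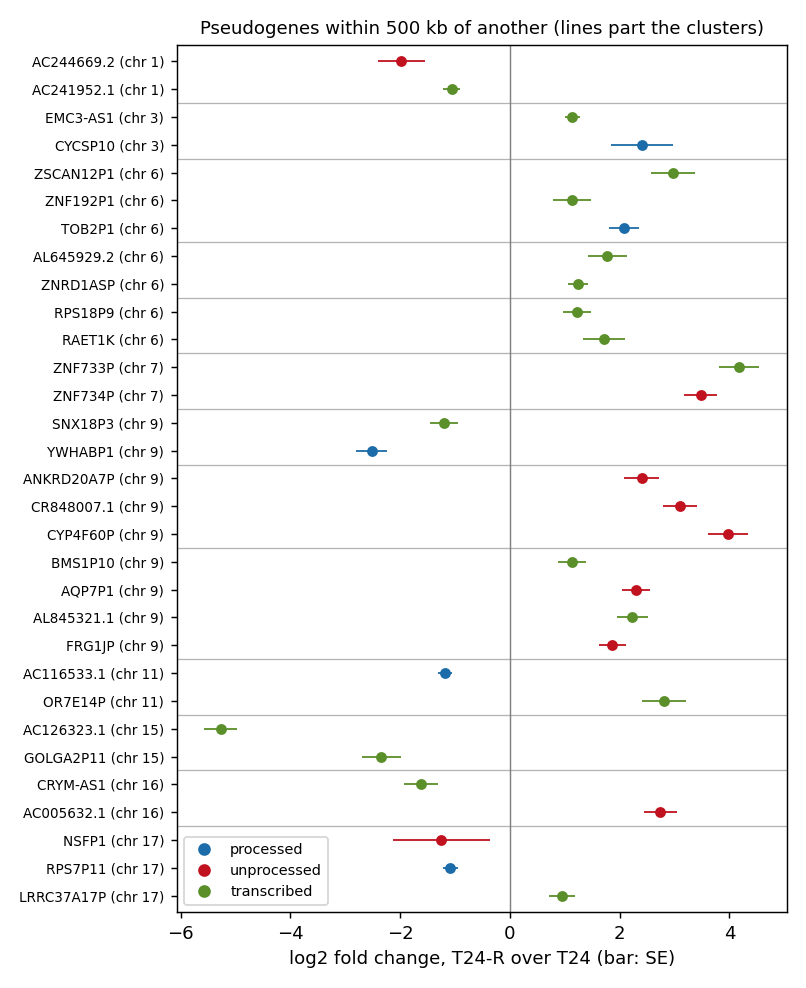
Fold change (log2) in T24-R relative to T24 with its standard error for the 31 pseudogenes that lie within 500 kb of another, coloured by class, with lines between the 13 clusters. In 10 clusters all members lie on the same side of 0.

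Shared sequence limits how far a count can be assigned to a pseudogene. The median share of 50-base stretches found elsewhere was 32.3% for processed, 50.5% for unprocessed and 6.58% for transcribed pseudogenes. Shares and exon overlaps describe the exons in GENCODE 44, which for some transcribed members are much shorter than the deposited gene length. Examples are GTF2IP13 (386 against 10334 bases), AL133216.2 (349 against 7213) and SDHAP1 (2000 against 3353). For such members they do not cover all of the counted sequence. The processed pseudogenes called lower had a median of 43.3% and those called higher 5.42%. In 54 members less than 20% of the stretches were shared and less than 20% of the exonic bases overlapped another gene's exons. Of these 54, 39 were called higher and 14 lower, and the processed ones among them were 11 higher and 8 lower. On the scale as deposited, lower calls thus made up 33 of 51 processed pseudogenes in all and 8 of the 19 with little shared sequence. With TMM factors all 33 were still called lower. Of the higher processed ones with little shared sequence, only CTBP2P7, KRT8P5, AC027796.2 and AL356234.1 were then still called. PHBP9, AC084337.1, ZNF204P, Z95152.1, TOB2P1, AC024451.2 and CYCSP10 were not, so this contrast depends on the scale.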

How the data were processed

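RNA was sequenced from T24 (n = 3) and T24-R (n = 3). According to the methods, the authors checked reads with fastp, aligned them to GRCh38 with HISAT2, counted reads per gene (featureCounts) and compared groups with DESeq2. Annotation version and strand setting are not given in the sources used here. The labels' protocol names retinas, and the submitters' processing notes name mm9, while the cell line and the identifiers are human, so the description in the paper was followed. The deposited signal values are gene counts after division by a size factor for each library. The deposited group means, log2 fold changes, p-values and adjusted p-values are the authors' own results and were not used. Other values in the deposited table are gene coordinates and lengths.

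All values of each library were whole multiples of a step (100% within 0.001), so reads were recovered. They carry no molecular identifiers, and floors (3 reads) cover counting error only. The total depth is unknown. limma 3.58.1 (R 4.3.3, trend) was run on log2(value + 1) over all 2462 genes with Benjamini-Hochberg adjustment, so fold changes of low genes are understated. Alternatives were TMM factors, pseudocounts of 0.1 and 10, a mean of at least 10, no trend, a replicate block, leaving out each library, count models (edgeR 4.0.16, DESeq2 1.42.0) on these reads, and members with little shared sequence.

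Parents were assigned by symbol or description. Shared 50- and 150-base stretches, exon overlap and identity (local alignment, Biopython 1.88) used GRCh38 and GENCODE 44, which holds 128 of the 131 identifiers. It has 125 of them as pseudogenes, and ZNF883, ZNF192P1 and CYP2D7 as protein-coding. Pseudogenes were named if their parent is listed, if they were among the 6 highest or 6 lowest called fold changes with a mean of 50 or more and groups that do not overlap, the 3 highest means of their class, or the 4 highest means with a group at 3 reads or fewer. Further members of families and clusters were named after their values were seen. Members and lists were chosen with earlier results of these data known. The scripts were tested on simulated data.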

Additional observations from a re-analysis of the deposited data

How the results depend on the processing

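The counts called higher and lower among the pseudogenes were 75 and 52. With TMM factors, 31 were called higher, of them 8 processed, 9 unprocessed and 14 transcribed. The log2 fold change then reversed for TP73-AS1 (-0.082), AL109918.1 (-0.080), ZNRD1ASP (-0.084), GTF2IP13 (-0.031), ZNF37BP (-0.38), LRRC37A17P (-0.39), DPY19L1P1 (-0.29) and AL591135.1 (-0.27). The calls of AL133216.2 (0.29), SVIL2P (1.63) and AC098826.2 (0.73) were lost with TMM factors. With a pseudocount of 10, 35 were higher and 31 lower (processed 8 and 21, unprocessed 5 higher, transcribed 22 and 6), and SVIL2P (0.885), AC098826.2 (0.745), DPY19L1P1 (0.914), PHKA1P1 (-0.855), RPL35P1 (-0.926) and AL591135.1 (0.816) fell short of 1. With a mean of at least 10, 47 were higher (processed 9, unprocessed 5), as only 97 members were then tested. Among the 54 members with little shared sequence, 39 were higher and 14 lower on the scale as deposited (processed 11 and 8, unprocessed 5 and 0, transcribed 23 and 6), and 6 had the sign of their listed parent. By construction this setting keeps fewer members. The TMM factors shifted the log2 fold changes of all listed genes by a median of -1.32. A larger pseudocount shrinks the fold changes of low genes by construction, and the members' median mean was 23.3 scaled counts. Other reasons for the smaller counts were not tested.

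Leaving out 1 library gave 71 to 76 higher and 42 to 51 lower, with 42 lower without T24-R replicate 3 and 43 without T24 replicate 1. Log2 fold changes slipped short of 1 without T24 replicate 1 for RPL10P16 (-0.996), RPL10P9 (-0.978), RPS7P11 (-0.965), AC241952.1 (-0.994), RPL39P3 (-0.950) and DPY19L1P1 (0.898). The same held without T24-R replicate 3 for RPL10P16 (-0.942), AC241952.1 (-0.938), RPL39P3 (-0.953), RPL35P1 (-0.745) and AL591135.1 (0.774), without T24 replicate 2 for DPY19L1P1 (0.945) and AL591135.1 (0.827), and without T24 replicate 3 for PHKA1P1 (-0.897). Same-numbered libraries correlated at 0.257, 0.0407 and 0.309 in their deviations from the group means, and differently numbered ones at -0.3 to 0.195. The labels name no pairing, and whether same-numbered libraries shared a batch is not known. With the replicate number as a block 76 were higher and 53 lower, and the block ended no call among the named members. edgeR and DESeq2 on the recovered reads gave 78 higher and 53 lower each. Genes with few reads, 34 of the members having a mean under 10, limit the precision.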
